A study of Gallus gallus with 8 samples.

Results

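Hypothalamic gene expression at 3 weeks of age was compared between chickens of a fat line (FL) and of a lean line (LL), using the 4 FL and the 4 LL arrays of that age out of 32 arrays in the series. The members were the arrays whose sample titles give the line and week 3, and no measured value was used to choose them. The series covered both lines at weeks 1, 3, 5 and 7, with 4 biological replicates in each of the 8 groups. The FL birds of week 3 carried the fat genotype and the LL birds the lean genotype, lines bred apart for high or low body fatness. Both were raised under the same standard broiler conditions, with no treatment, and whether the birds had been fed or fasted, their sex and any pooling of birds are not stated in the labels. Each array was a DEL-MAR 14K spotted cDNA array on which Cy3-labelled cDNA from 20 micrograms of hypothalamic RNA of 1 sample competed with a Cy5-labelled pool of equal parts of all the samples. A log2 ratio above 0 therefore means more of a transcript in that sample than in the pool, and a difference is FL minus LL.

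The hypothalamus sets food intake and energy use. Neurons of its arcuate region that make proopiomelanocortin (POMC) restrain feeding, others promote it, and both read hormones and nutrients from the blood. Endocannabinoids acting on the type 1 cannabinoid receptor (CNR1) favour feeding in birds and mammals. In chickens most fatty acids are made in the liver, while neurons and glia make their own cholesterol.

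Hypothalamic regional genes were measured in both lines. The homeobox genes BSX and ISL1 were above background on all 4 FL and all 4 LL arrays, and RAX2, DLX1 and MEIS2 on 4 FL and 3 LL arrays. Above background means a Cy3 intensity higher than that of 95% of the empty spots on the same array. Of the 11 anterior pituitary genes on the array 9 were tested, and growth hormone (GH) and prolactin (PRL) were above background on all 8 arrays. The median log2 ratio of the pituitary genes lay between -0.20 and -0.01 on the FL arrays, against -0.16 to 0.11 on the LL arrays. The transcripts of these genes were thus at overlapping levels in the lines, and whether they came from pituitary tissue was not tested. In tissue RNA, fewer cells of a type and less RNA per cell cannot be told apart.

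One array stood apart before any comparison of the lines. LL replicate 1 had a median Cy3 signal of 2.28 times its local background, while the other 7 arrays of week 3 lay between 3.68 and 6.37. It measured 2585 clones above background, against 6499 to 9048 on the other arrays, and 27.2% of its spots were left out as unsatisfactory by the letters of the image software. Its log2 ratios correlated with the other LL arrays at a mean r of -0.19 across clones, whereas the other LL arrays had means of 0.28 to 0.33. Those means include LL replicate 1, and among themselves LL replicates 2 to 4 correlated at 0.55 to 0.58. The array closest to LL replicate 1 was FL replicate 1 (r = 0.45), and the lowest correlation of LL replicate 1 was -0.34 with FL replicate 4. The labels state the same dyes for every sample, so its direction was kept. The most alike pair of week 3 arrays crossed the lines, FL replicate 4 and LL replicate 4 (r = 0.79). Signal averaged 4.62 ± 0.891 in FL and 4.51 ± 1.73 in LL (SD, n = 4 each), and a two-sided exact permutation test gave p = 0.886, where 0.0286 is the smallest p that 4 against 4 arrays allow. Without LL replicate 1 the LL mean was 5.25 ± 1.10 (n = 3, exact p = 0.486). Signal rose with the replicate number in both lines. It was 3.68, 4.03, 5.30 and 5.45 on FL replicates 1 to 4, and 2.28, 4.18, 5.19 and 6.37 on LL replicates 1 to 4. The permutation test did not pair arrays by number.

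**Figure D1:**
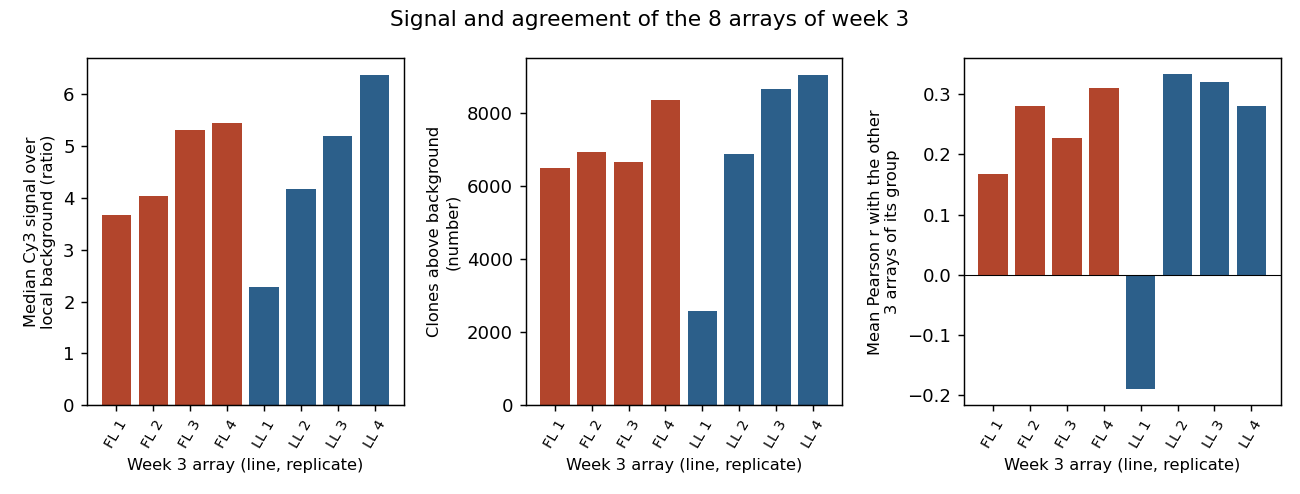
Signal and agreement of the 8 arrays of week 3. Bars give, for each FL array (left) and each LL array (right), the median Cy3 signal over local background, the number of clones above background out of 17708, and the mean Pearson correlation with the other arrays of its group across the clones tested. LL replicate 1 is lowest in all 3, at 2.28, 2585 clones and -0.19.

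No transcript passed the test between the lines at week 3. Of 7917 clones tested, 0 passed at an adjusted p under 0.05 (0% of the clones, limma with Benjamini-Hochberg adjustment, smallest adjusted p = 0.999). At an unadjusted p under 0.05 there were 180 clones (2.27%), 106 higher (1.34%) and 74 lower (0.935%) in FL, where 395.85 would be expected by chance. Median centring in place of the intensity-dependent normalization moved that split to 117 of 147 higher in FL. The median difference over all clones was 4.4e-05 on the log2 scale, and 50.01% of the differences were above 0. With LL replicate 1 left out, 0 of 7904 clones passed and 158 (2%) had an unadjusted p under 0.05. In the other 20 settings tried 0 passed as well, and 59 to 336 had an unadjusted p under 0.05. The count of 59 came from 2752 clones above background on every measured week 3 array (2.14%). That of 336 came from 14139 clones tested without a filter on dim clones (2.38%). As a share of the clones tested, the 20 settings ran from 1.43% with only the 8 arrays of week 3 to 3.52% without LL replicate 4.

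The precision of the arrays bounds what could be seen. The median standard error of a line difference was 0.15, and the median 95% interval reached 0.30 to either side of its value on the log2 scale. For 7501 clones (94.7%) the interval lay within a 2-fold difference either way, and for 5890 (74.4%) within 1.5-fold. These intervals hold for each clone by itself and are not a detection limit, since a call needed an adjusted p under 0.05. The background correction added an offset of 50 to the intensities, which draws the ratios of dim clones towards 0. For dim clones the intervals therefore bound the log2 ratio and not the difference in transcript. With a filter to clones above background on every measured week 3 array, 2752 clones were tested. The interval excluded 0 for 180 clones, of which 0 passed after adjustment over the 7917 clones. Where a gene had 2 or more tested clones, which held for 872 genes, the line differences of its clones had the same sign in 50.2% of the pairs and correlated at r = 0.025 across genes, a description over pairs that share their arrays.

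Although no clone passed, the 4 FL and the 4 LL values of some did not overlap. Such a separation describes the order of the values and does not rank clones by their difference relative to its spread. Among the 6700 clones with all 8 values, 96 were of this kind (1.43%), with the 4 FL values above the 4 LL values in 37 (0.552%) and below them in 59 (0.881%). If the line made no difference, a share of 0.0286 of the clones would be expected to separate, which is more than the 1.43% seen. The split depended on the normalization, with 46 above and 41 below after normalization by print-tip group and 53 above and 33 below after median centring. Counted by gene, with the brightest clone standing for a gene, 46 of 3153 genes had values that did not overlap (1.46%). The genes described next are the 12 in each direction with the smallest unadjusted p, and for each the adjusted p was 0.999.

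**Figure D2:**
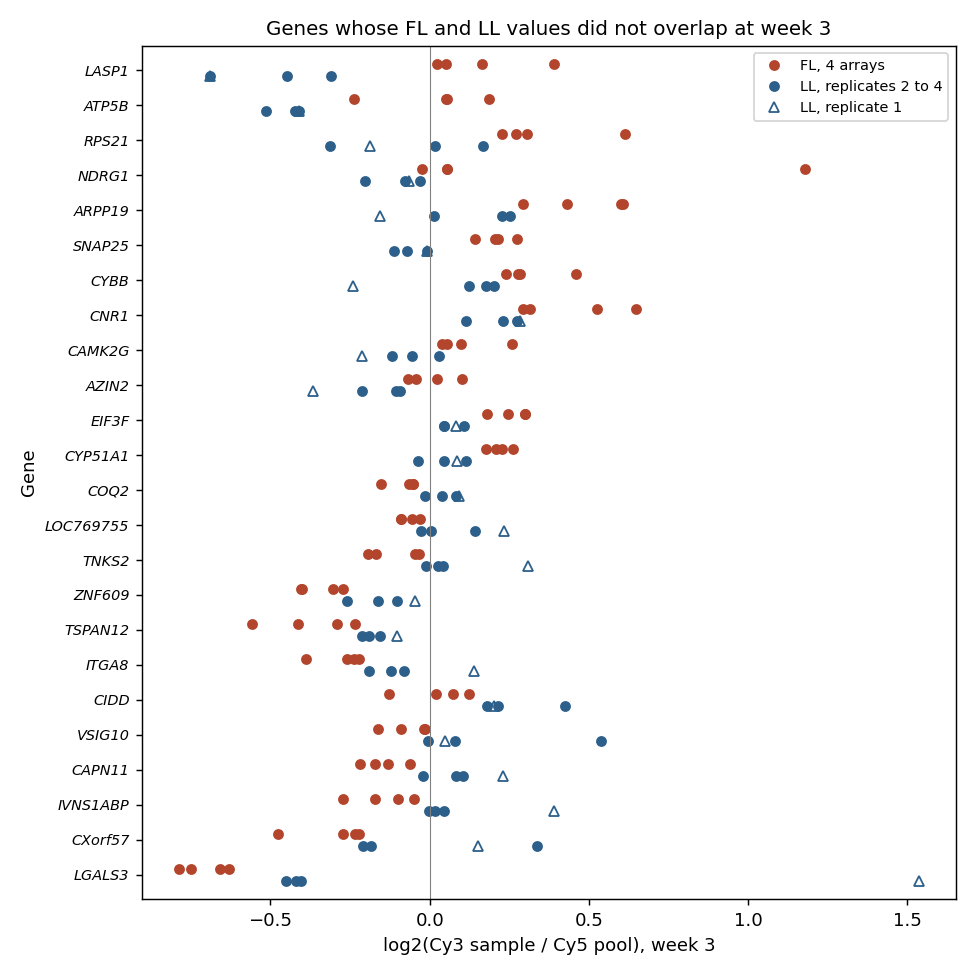
Log2 ratios to the pool on each array of week 3 for the 24 genes described in the text, ordered by their difference, FL points (red) above LL points (blue) in each row. The open triangle marks LL replicate 1, which lies at 1.54 for LGALS3 while the other LL arrays lie between -0.45 and -0.40.

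RPS21, a protein of the small ribosomal subunit, had the smallest p of them. Its log2 ratios were 0.27, 0.61, 0.23 and 0.30 on the FL arrays, against -0.19, -0.31, 0.02 and 0.17 on the LL arrays. The difference was 0.43 ± 0.12 (SE, unadjusted p = 0.000883, adjusted p = 0.999, limma), a ratio of 1.35, and it was 0.40 without LL replicate 1. ARPP19, a cAMP-regulated phosphoprotein that inhibits the phosphatase PP2A, measured 0.29, 0.60, 0.61 and 0.43 in FL, against -0.16, 0.01, 0.25 and 0.23 in LL. All 4 FL arrays lay above the highest LL array, by a small margin for FL replicate 1, and the difference of 0.40 ± 0.13 became 0.32 without LL replicate 1. LASP1, an actin-binding LIM and SH3 protein, had the widest gap of the genes higher in FL, with 0.05, 0.17, 0.39 and 0.02 in FL, against -0.69, -0.69, -0.31 and -0.45 in LL. Its difference was 0.69 ± 0.26 (SE), or 1.62-fold, with a 95% interval from 0.16 to 1.23.

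CNR1, the type 1 cannabinoid receptor, measured 0.31, 0.65, 0.53 and 0.29 in FL, against 0.29, 0.11, 0.27 and 0.23 in LL. The lowest FL array was barely above the highest LL array, and the difference was 0.22 ± 0.09 (SE, unadjusted p = 0.0184, adjusted p = 0.999, limma). It was 0.24 without LL replicate 1. CYP51A1, the lanosterol demethylase of cholesterol synthesis, was tight in both lines, with 0.26, 0.23, 0.21 and 0.18 in FL, against 0.09, -0.04, 0.05 and 0.12 in LL. EIF3F, a subunit of translation initiation factor 3, was similar, with 0.30, 0.18, 0.30 and 0.25 in FL, against 0.08, 0.05, 0.04 and 0.11 in LL. Their differences were small, 0.17 ± 0.07 for CYP51A1 and 0.19 ± 0.09 for EIF3F.

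ATP5B, the catalytic beta subunit of mitochondrial ATP synthase, measured 0.05, 0.19, 0.05 and -0.24 in FL, against -0.41, -0.41, -0.52 and -0.42 in LL. The LL arrays were close together and FL replicate 4 was nearest to them, and the difference was 0.45 ± 0.21. A dimmer clone of ATP5B gave 0.12. SNAP25, a membrane protein that drives the fusion of synaptic vesicles, measured 0.20, 0.21, 0.27 and 0.14 in FL, against -0.01, -0.01, -0.07 and -0.11 in LL. Its 4 values in each line spread little (SD 0.054 in FL and 0.050 in LL), while its spread in the other groups of the series entered the standard error of 0.18, so its unadjusted p was 0.162. NDRG1, a stress-responsive cytoplasmic protein, stood at 1.18 on FL replicate 3 and between -0.02 and 0.06 on the other FL arrays, against -0.20 to -0.03 on the LL arrays. One FL array thus set most of its difference of 0.41, which was 0.12 without FL replicate 3, and the other clones of NDRG1 gave -0.14, -0.05 and -0.08. The remaining genes higher in FL were CAMK2G, a calcium/calmodulin-dependent kinase subunit, at 0.20 ± 0.13, CYBB, the catalytic subunit of the phagocyte NADPH oxidase, at 0.25 ± 0.17 (0.15 without LL replicate 1), and AZIN2, an antizyme inhibitor, at 0.20 ± 0.22. AZIN2 was above background on 1 FL and 1 LL array, which leaves its size uncertain.

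Among the genes lower in FL, LL replicate 1 was the highest LL array for 9 of the 12. It was the lowest LL array for 5 of the 12 genes higher in FL. LGALS3, the carbohydrate-binding galectin 3, measured -0.63, -0.66, -0.75 and -0.79 in FL, against 1.54, -0.45, -0.40 and -0.42 in LL. The difference of -0.77 ± 0.35 (SE) became -0.28 without LL replicate 1, the array of low signal, and the clone was above background on 2 FL and 2 LL arrays. TNKS2, a tankyrase, showed the same pattern, with -0.19, -0.17, -0.03 and -0.05 in FL, against 0.31, 0.04, -0.01 and 0.03 in LL, and its difference of -0.20 became -0.13 without that array. IVNS1ABP, an actin-associated kelch protein, measured -0.10, -0.27, -0.17 and -0.05 in FL, against 0.39, 0.05, -0.0017 and 0.02 in LL, and its difference of -0.26 became -0.17.

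CIDD and CAPN11 had the smallest unadjusted p of the genes lower in FL. CIDD measured 0.12, -0.13, 0.02 and 0.07 in FL, against 0.20, 0.42, 0.18 and 0.22 in LL, a difference of -0.23 ± 0.08 (SE) that was -0.25 without LL replicate 1. CAPN11, a calpain protease, measured -0.22, -0.13, -0.17 and -0.06 in FL, against 0.23, 0.08, -0.02 and 0.10 in LL. Its difference was -0.24 ± 0.09 and a dimmer clone of the gene gave 0.01. ITGA8, an integrin alpha subunit, was above background on 0 FL arrays and on 3 LL arrays, so its FL signal could not be told from background. By its normalized Cy3 intensity ITGA8 was 1.71-fold lower in FL. By the log2 ratio it differed by -0.21 ± 0.10, or 1.16-fold. The Cy3 value was rebuilt from the log2 ratio after loess and the mean log2 intensity of both dyes. Those mean intensities were first put on a common distribution across arrays. There were no dye swaps. The other genes lower in FL were ZNF609, a zinc finger protein, at -0.20, VSIG10, an immunoglobulin-domain protein, at -0.24 (-0.11 without LL replicate 3), CXorf57 at -0.32, the tetraspanin TSPAN12 at -0.21, COQ2, an enzyme of ubiquinone synthesis, at -0.13 and LOC769755 at -0.16. ZNF609 was above background on 1 FL and 3 LL arrays and CXorf57 on 2 FL arrays and 1 LL array, so the sizes of their differences are uncertain. Dimmer clones of VSIG10 and IVNS1ABP gave 0.01 and -0.07.

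Genes of feeding signals were measured in part. Of 7 precursors of feeding peptides on the array 5 were tested, and of 11 receptors of feeding and metabolic signals 5 were tested, with 0 of these 10 passing the test. POMC, the precursor of the appetite-restraining melanocortins, had log2 ratios of -0.09, -0.12, 0.22 and -0.01 in FL, against -0.04, 0.26, 0.03 and -0.08 in LL. The lines overlapped throughout, the difference was -0.04 ± 0.11 (SE) with a 95% interval from -0.27 to 0.19, and a dimmer clone of POMC gave 0.17. TAC1, the precursor of substance P, measured -0.11, -0.22, -0.21 and -0.18 in FL, against -0.15, -0.34, -0.22 and -0.04 in LL, with an interval of its difference from -0.18 to 0.18. Pronociceptin (PNOC), whose product nociceptin stimulates feeding, measured 0.08, -0.10, 0.71 and 0.03 in FL, against 0.11, 0.41, 0.64 and -0.01 in LL. Its difference was -0.11 ± 0.20. In both lines replicate 3 was the highest PNOC array.

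Neuromedin U (NMU), an appetite-restraining peptide, and ADCYAP1, the precursor of PACAP, were near the background, with NMU above it on 2 FL and 2 LL arrays and ADCYAP1 on 2 FL and 3 LL arrays. NMU measured -0.05, 0.52, -0.13 and -0.14 in FL, against 0.34, 0.04, -0.22 and -0.13 in LL. ADCYAP1 measured -0.12, 0.18, -0.04 and -0.01 in FL, against -0.11, -0.19, 0.46 and -0.04 in LL. The differences were 0.04 ± 0.14 for NMU and -0.03 ± 0.17 for ADCYAP1 (SE), and the values of the lines overlapped for both.

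Among the receptors, CNR1 was the 1 of 5 with an unadjusted p under 0.05. The growth hormone receptor (GHR) measured -0.48, 0.06, 0.11 and 0.23 in FL, against -0.63, 0.09, 0.32 and 0.15 in LL, lowest on replicate 1 of both lines. The insulin receptor (INSR) measured -0.26, 0.11, 0.75 and 0.10 in FL, against -0.51, 0.36, 0.51 and -0.12 in LL, with replicate 1 lowest and replicate 3 highest in both lines. The brain-derived neurotrophic factor receptor NTRK2 measured 0.20, 0.30, 0.19 and 0.02 in FL, against 0.34, 0.33, 0.12 and 0.06 in LL. The lines overlapped for these 3 genes, and the differences were -0.00048 ± 0.21 for GHR, 0.12 ± 0.24 for INSR and -0.04 ± 0.08 for NTRK2 (SE). The somatostatin receptor SSTR2 differed by -0.10 ± 0.14.

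**Figure D3:**
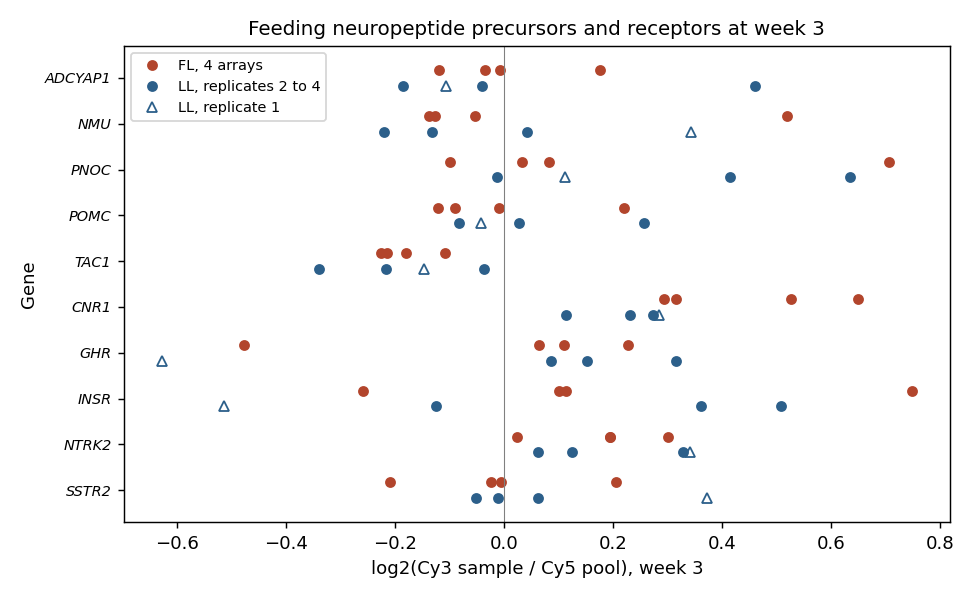
Log2 ratios to the pool on each array of week 3 for the 5 tested feeding neuropeptide precursors and the 5 tested receptors, FL points (red) above LL points (blue) in each row, with an open triangle for LL replicate 1. The FL and LL points overlap for all but CNR1, whose FL values lie between 0.29 and 0.65 and whose LL values lie between 0.11 and 0.29.

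Genes of 27 lists were read against all 3740 genes tested. The lists were chosen for functions and cell types of the hypothalamus, with earlier results of these data known. Of all genes tested, 1884 (50.4%) were higher in FL, 92 (2.46%) had an unadjusted p under 0.05 and the median difference was 0.0012. In every list 0 genes passed the test. Whether these lists differed from other genes was not tested. Their members share arrays, and some genes belong to several lists.

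The vacuolar proton pump, which acidifies synaptic vesicles and lysosomes, had the highest median of the 27 lists with all 8 arrays, and without LL replicate 1 the red blood cell list was higher (0.25, against 0.11 for the pump). Of its 12 tested genes 9 were higher in FL, with a median difference of 0.17, and 3 had an unadjusted p under 0.05. The median log2 ratio of the list was 0.11, 0.22, 0.12 and 0.06 on the FL arrays, against 0.07, -0.02, 0.02 and 0.0032 on the LL arrays, so FL replicate 4 and LL replicate 1 overlapped. ATP6V1A, the catalytic subunit, measured 0.02, -0.20, 0.16 and -0.09 in FL, against -1.08, -0.35, -0.12 and -0.28 in LL, and its difference of 0.44 ± 0.15 became 0.23 without LL replicate 1, a change of over 1.5 times. ATP6V1B2, a regulatory subunit, measured 0.11, 0.30, 0.70 and 0.46 in FL, against -0.52, -0.09, 0.27 and 0.21 in LL, and its 0.43 ± 0.18 became 0.26. ATP6V1E1, a stalk subunit, was missing on FL replicate 4 and differed by 0.30 ± 0.13, or 0.38 without LL replicate 1. Dimmer clones gave -0.30 for ATP6V1A and -0.02 for ATP6V1E1. Without LL replicate 1 the list's median was 0.11, with 8 of 12 genes higher in FL and 1 at an unadjusted p under 0.05.

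Lists of neuronal, ribosomal protein and glycolysis genes leaned towards FL with LL replicate 1 included and not without it. Over all genes tested, 1884 of 3740 were higher in FL with that array and 1767 without it, and the median went from 0.0012 to -0.0077. Medians of other lists, given below, also fell below 0 without it, so this was not particular to these lists. Of 38 cytosolic ribosomal protein genes 26 were higher in FL (median 0.06), and 13 without that array (median -0.03). The same counts were 19 and 11 of 25 genes for synaptic vesicle release and recycling (median 0.04, and -0.03 without the array), 15 and 10 of 21 for glucose uptake and glycolysis (0.07 and -0.01), and 14 and 10 of 22 for axon growth and immature neurons (0.06 and -0.01). For 9 general neuron markers they were 7 and 3 (0.09 and -0.04). The median of these neuron markers was -0.42 on LL replicate 1, against -0.02 to 0.12 on the FL arrays and 0.04 to 0.25 on the other LL arrays. For ribosomal proteins LL replicate 1 stood at -0.51, against -0.22 to 0.18 on the FL arrays and -0.10 to 0.09 on the other LL arrays. That array had the lowest signal, and the part of signal in these lists was not tested.

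**Figure D4:**
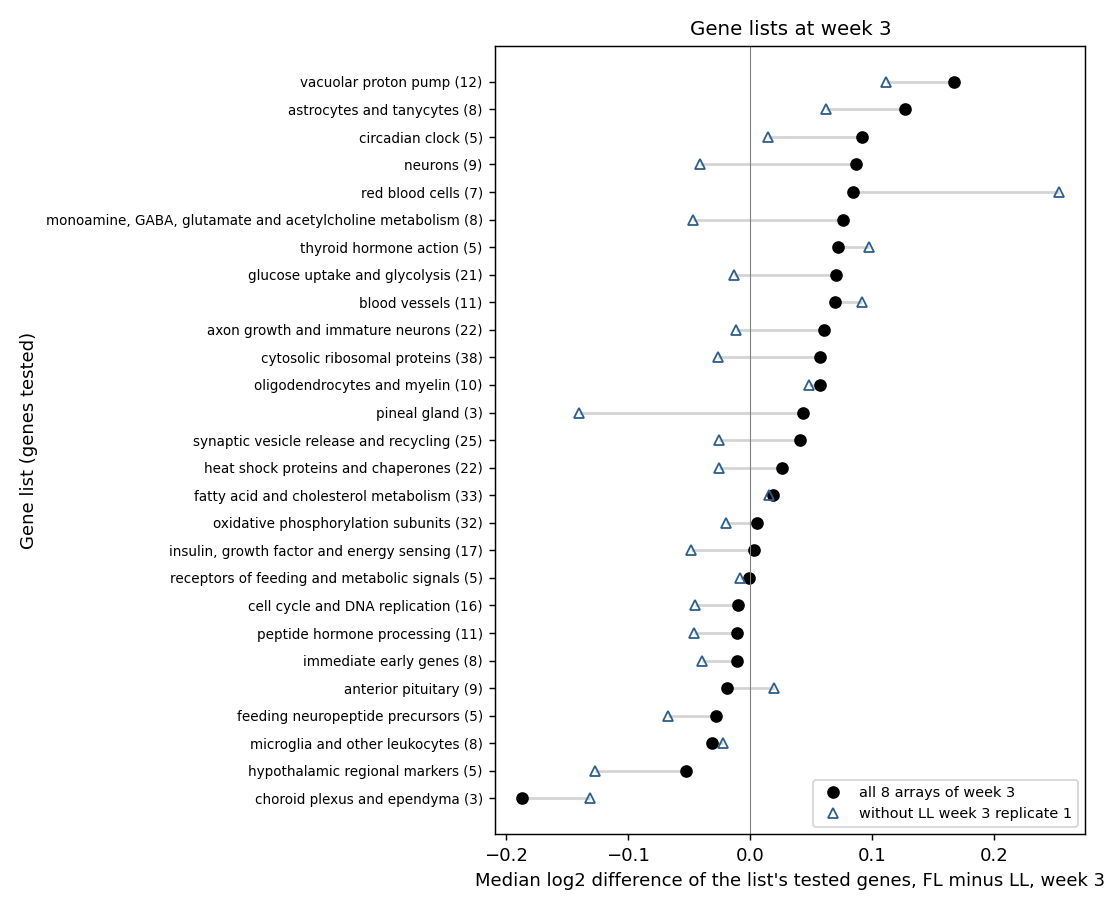
Median log2 difference between FL and LL at week 3 over the tested genes of each of 27 lists, with all 8 arrays (filled circles) and without LL replicate 1 (open triangles). The number in brackets is the number of genes tested. The medians run from -0.19 to 0.17 with all arrays, and those of neurons, ribosomal proteins and synaptic vesicle genes are among those below 0 without the array.

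Single genes of these lists differed by more than the list medians without passing the test. GPI, a glycolytic isomerase, differed by 0.46 ± 0.23 (SE), with its dimmer clones at 0.57 and 0.21, LDHA by 0.32 ± 0.20 and the hexokinase HK1 by 0.26 ± 0.16 (0.16 without FL replicate 2). CRMP1, a collapsin response mediator of axon growth, differed by 0.43 ± 0.26, and its other clone by 0.45. RPLP0, of the large ribosomal subunit, differed by 0.43 ± 0.23, and by 0.21 without LL replicate 1. STX1A, the syntaxin of synaptic vesicle fusion, differed by -0.47 ± 0.32, with FL replicate 3 at -1.37, and by -0.18 without that array.

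Lipid and energy metabolism showed no common direction. Of 33 fatty acid and cholesterol genes 19 were higher in FL (median 0.02), and 2 had an unadjusted p under 0.05, both of the sterol pathway. They were CYP51A1, described above, and FDFT1, squalene synthase, which measured 0.33, 0.58, 0.49 and 0.18 in FL, against -0.41, -0.08, 0.30 and 0.23 in LL. The FDFT1 values overlapped between the lines, and its difference of 0.39 ± 0.18 became 0.25 without LL replicate 1. Of 32 subunits of oxidative phosphorylation 17 were higher in FL (median 0.01), with ATP5B the 1 gene at an unadjusted p under 0.05. Of 17 genes of insulin, growth factor and energy sensing 9 were higher in FL (median 0.0036). CRTC1, a CREB coactivator known from mice to restrain feeding through the hypothalamus, was the 1 with an unadjusted p under 0.05. It measured 0.15, 0.08, 0.38 and -0.27 in FL, against 0.59, 0.48, 0.53 and 0.27 in LL. It was above background on 0 FL and 2 LL arrays, so its FL signal could not be told from background. By the normalized Cy3 intensity, computed as for ITGA8, CRTC1 was 1.19-fold lower in FL, and the log2 difference was -0.38 ± 0.17, or 1.30-fold. Thyroid hormone genes numbered 5, with the receptor THRA at 0.41 ± 0.36 (0.18 without FL replicate 3) and the carrier transthyretin (TTR) at -0.36 ± 0.33 (-0.15 without LL replicate 1).

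Cell type markers overlapped between the lines in most lists. The 3 choroid plexus and ependyma genes were all lower in FL, with list medians of -0.04 to 0.07 on the FL arrays, against 0.10 to 0.28 on the LL arrays. FOLR1, a folate receptor of the choroid plexus, measured 0.07, -0.04, 0.04 and 0.07 in FL, against 0.38, 0.24, 0.10 and 0.15 in LL, a difference of -0.19 ± 0.11 (unadjusted p = 0.0912, adjusted p = 0.999, limma). The other members were TTR and FOXJ1, a transcription factor of ciliated cells, at -0.02 ± 0.10. FOLR1 was the 1 gene of the 3 whose values did not overlap. TTR measured -0.27, -0.87, -0.79 and -0.85 in FL, against 0.28, -0.01, -0.65 and -0.95 in LL. The median of 3 genes is the value of a single gene, and the 0.28 was that of TTR on LL replicate 1. Astrocyte and tanycyte markers had a median of 0.13, and 6 of 8 were higher in FL, among them S100B at 0.38 ± 0.24 (0.22 without FL replicate 2) and GFAP at 0.23 ± 0.30, which was 0.02 without LL replicate 1. The median of 10 oligodendrocyte genes was 0.06, of 11 blood vessel genes 0.07, of 8 microglia and leukocyte genes -0.03 and of 7 red blood cell genes 0.08, which was 0.25 without LL replicate 1. The median of the astrocyte and tanycyte markers was 0.06 without that array. The haemoglobin genes HBA1 and HBBA differed by 0.24 ± 0.15 and 0.34 ± 0.22, and HBBA was not measured on LL replicate 1. HBA1 was 0.07 without FL replicate 3 and 0.39 without FL replicate 2. GH differed by 0.28 ± 0.24, and by 0.04 without LL replicate 2 and 0.47 without LL replicate 1.

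Genes that respond to activity or stress did not pass either. Of 8 immediate early genes 4 were higher in FL, and CYR61, a matrix-associated growth regulator, differed by 0.25 ± 0.11, or 0.16 without LL replicate 1. Of 22 heat shock and chaperone genes 13 were higher in FL, with HSBP1, a binding partner of heat shock factor, at -0.18 ± 0.08 (-0.12 without FL replicate 3) and the co-chaperone DNAJA1 at 0.52 ± 0.30, which had -0.26 on LL replicate 1 and 0.40 to 0.47 on the other LL arrays. Of 16 cell cycle genes 6 were higher in FL (median -0.01), of 5 circadian clock genes 4 (median 0.09), of 8 genes of monoamine, GABA, glutamate and acetylcholine metabolism 6 (median 0.08), of 11 genes of peptide hormone processing 5 (median -0.01) and of 3 pineal genes 2 (median 0.04). Without LL replicate 1 the medians were 0.01 for the clock genes, -0.05 with 3 of 8 higher for the transmitter genes, -0.14 for the pineal genes and -0.03 for the heat shock and chaperone genes. That array likewise turned the medians of insulin, growth factor and energy sensing (-0.05 without it) and of oxidative phosphorylation (-0.02 without it).

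Whether the line difference at week 3 differed from that at the other ages was tested in the same model. Against week 1, 8 of 7917 clones passed (0.101%, adjusted p under 0.05, limma), all 8 with a higher value at week 3, and 1145 (14.5%) had an unadjusted p under 0.05. Against week 5, 0 clones passed and 66 (0.834%) had an unadjusted p under 0.05, and against week 7 0 passed and 325 (4.11%) did. The smallest adjusted p against week 5 was that of RPS21, 0.0891.

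SGIP1, which takes part in endocytosis at synapses and in energy balance in rodents, was higher in FL at week 3 and lower at week 1. At week 3 it measured 0.30, 0.26, 0.46 and 0.35 in FL, against -0.44, 0.18 and 0.14 on LL replicates 2 to 4, and it was not measured on LL replicate 1. At week 1 it measured -0.59, -1.24, -1.21 and -0.87 in FL, against 0.14, 0.11, -0.15 and 0.0034 in LL. The measured FL and LL values did not overlap at either age, in opposite directions, and the line differences of 0.38 ± 0.17 and -1.002 ± 0.16 (SE) differed by 1.38 ± 0.24 (adjusted p = 0.0141). The week 3 difference was 0.18 without LL replicate 2.

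ATP6V1B2 differed by 0.43 ± 0.18 at week 3 and by -0.96 ± 0.18 at week 1, where it measured -0.48, -1.06, -0.47 and -0.73 in FL, against 0.43, 0.20, 0.08 and 0.38 in LL. The step between the ages was 1.39 ± 0.26 (adjusted p = 0.0192) and became 1.22 without LL week 3 replicate 1, where it no longer passed (adjusted p = 0.0657). VCP, the AAA ATPase that pulls ubiquitinated proteins out of complexes, measured 0.51, 0.53 and 0.42 in FL at week 3, with replicate 3 missing, against -0.19, 0.15, 0.30 and 0.35 in LL. The step of VCP was 1.11 ± 0.22 (adjusted p = 0.0379, limma), against adjusted p = 0.0661 with the replicate number as a block and 0.0971 without LL week 3 replicate 1, and its other clone gave 1.05. HNRNPH1, an RNA-binding splicing regulator, passed through a dimmer clone with a step of 1.502 ± 0.26, while its other clones gave 0.48 and 0.18. Its clone that passed was above background on 1 FL array of week 1. ACTR1A, a dynactin subunit, passed through a dimmer clone with 1.30 ± 0.25, while the brightest clone gave 0.28, and no FL array of week 1 was above background for the clone that passed. The other 3 clones have no gene name, with steps of 1.86, 0.75 and 0.97, and the last no longer passed with the replicate block (adjusted p = 0.0521). The clone with the step of 1.86 was above background on 0 FL arrays and 1 LL array of week 1, and on 1 LL array of week 3. The size of its step is therefore uncertain.

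**Figure D5:**
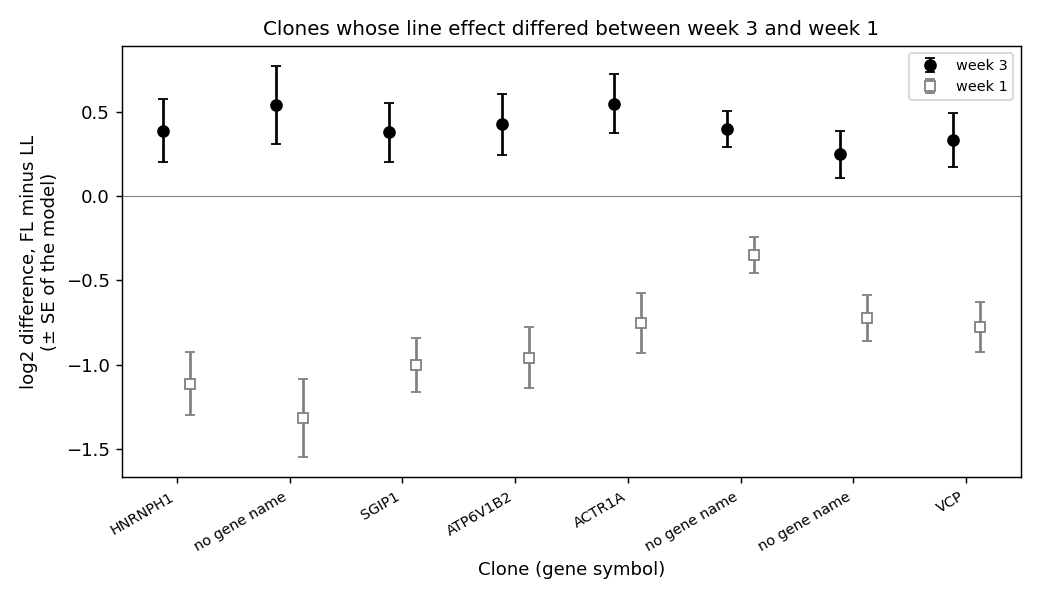
Line difference (FL minus LL, log2) at week 3 (filled circles) and at week 1 (open squares) for the 8 clones whose line difference passed the test between the ages, with the standard error of the model. All lie above 0 at week 3 and below 0 at week 1.

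The line difference at week 3 of all 8 clones had adjusted p = 0.999, and at week 1 their adjusted p ranged from 0.00841 to 0.117. Without LL week 3 replicate 1, 2 clones passed, those of HNRNPH1 and SGIP1, and SGIP1 had no value on that array. Without LL week 1 replicate 1, 0 passed, so the count rests on single arrays. Across the 7917 clones the line differences of weeks 3 and 1 correlated at r = -0.27, against r = 0.16 over 7904 clones without LL week 3 replicate 1. These points share the pool and, within a week, their arrays. The median Cy3 signal over background was 2.82 to 4.09 on the FL arrays of week 1, against 3.65 to 7.02 on the LL arrays of week 1, and 2.28 on LL week 3 replicate 1. With signal as a covariate r was -0.15 and 4 clones passed.

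The genes that led the line difference at other ages are given here by their week 3 values, beside SGIP1, ATP6V1B2, VCP and HNRNPH1 above. At week 1, 19 clones passed between the lines (0.24%), and at weeks 5 and 7 0 passed (0%). The week 1 count was 0 with array signal as a covariate (759 at an unadjusted p under 0.05, limma), 35 with the replicate block, 82 without LL replicate 1 of week 3, 88 without FL replicate 1 of week 1, and 2 without LL replicate 1 of that week. NECAB1, a calcium-binding protein of neurons, differed by -0.71 at week 1 (adjusted p = 0.0144, limma) and by 0.04 ± 0.14 (SE) at week 3. NSF, the ATPase that recycles the vesicle fusion machinery, differed by -1.06 at week 1 (adjusted p = 0.0555) and by 0.29 ± 0.24 at week 3, or 0.03 without LL week 3 replicate 1. At week 3, RNF208, ZEB1, DOHH, TRDN, DDX46, CECR5L and PAFAH2 of those genes differed by -0.08 to 0.13, and TTYH3 by 0.57 ± 0.37 with FL replicate 3 at 1.84, or 0.19 without that array. The differences of ARPP19 and CNR1 were higher at week 3 than at week 1 by 0.82 and 0.54, each with an adjusted p of 0.0803, so both missed the threshold. COL18A1, the source of endostatin, measured -0.22, 0.38, 0.47 and -0.07 in FL at week 3, against 0.66, 0.99, -0.02 and 1.00 in LL. Its values overlapped, and the difference was -0.52 ± 0.23 (unadjusted p = 0.0334, adjusted p = 0.999).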

How the data were processed

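RNA of 1 hypothalamic sample (Cy3) and a common pool (Cy5) were measured on each of 32 arrays, grouped by the line and week in the sample titles. Per the file headers, the deposited array files hold raw and background intensity in both channels, spot areas and quality letters, the Cy3 intensity after the authors' normalization, and a log2 ratio computed by the authors from it and raw Cy5. The sources used here do not give the scanner or the normalization method. The headers call letters A, X, Y and Z unsatisfactory, and such spots were left out. The letter S is not in that key and was kept.

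Intensity per pixel was corrected with normexp (offset 50) and normalized within arrays by loess (span 0.3, 4 iterations, the 960 empty spots at weight 0) in limma 3.58.1 under R 4.3.3. The deposited table of the whole series holds a log2 ratio for each group under spot names that differ from the array files. All 64503 values compared lay within 0.005 of the 4-array mean by place and 1775 of 30053 by name, so the array files' names were used. Symbols came from the platform annotation (10478 of 19200 spots named, 10332 matched by gene number, 0 symbols changed), and 123 spots of 2 shared accessions were left unnamed. Spots of one accession were averaged into 17708 clones. A clone was tested when above background on at least 3 arrays of a group, with at least 2 values in every group, which left 7917 clones (3740 genes, each represented by its brightest clone). In week 3, 2.77% of their values were missing.

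One limma model with 8 group means gave every comparison, in two-sided tests adjusted by Benjamini-Hochberg over all clones tested. The replicates are biological per the series' design text. In a check of deviations from the group means, FL and LL arrays of the same number correlated at 0.61, 0.10, 0.29 and 0.56. Arrays of different numbers correlated at -0.45 to 0.27, the highest being FL replicate 2 with LL replicate 4. The check therefore does not settle a pairing for every number. Array signal at week 3 also rose with the number in both lines, and what arrays of the same number share was not tested. The main model had no term for the number, which entered only in the setting with the replicate block, as an effect shared by all weeks. A pairing within week 3 was not modelled. Named genes are all clones past the threshold, the 12 genes in each direction whose values did not overlap with the smallest p, the feeding lists, the 3 genes of smallest p in other lists and the 5 of smallest p in the other contrasts. Of 115 such genes 74 are named, and the rest are counted in their lists. The gene lists and the genes in them were chosen with earlier results of these data known. The model was run on simulated data with errors drawn independently for each clone and array. That run does not cover deviations shared across the clones of an array, such as those of LL week 3 replicate 1. Spot sequences were not used here.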

Additional observations from a re-analysis of the deposited data

Results flagged for a closer look

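Among 74 named genes and 4 array measures, 150 groups of 4 values were checked for 1 value far from the other 3, and 15 had one. The cutoff flags about 1 in 20 groups drawn at random from a normal distribution. Many of these genes were chosen by their week 3 values and all share the same arrays, so that rate does not give the number expected here. LL week 3 replicate 1 was the array far from the others in 5 of the 15. It stood at 1.54 for LGALS3 (other LL arrays -0.45 to -0.40), at 0.31 for TNKS2 (-0.01 to 0.04), at 0.39 for IVNS1ABP (-0.0017 to 0.05), at -0.37 for HK1 (-0.14 to -0.10) and at -0.26 for DNAJA1 (0.40 to 0.47). In the other LL arrays, ATP5B stood at -0.52 on replicate 3, CIDD at 0.42 on replicate 2 and VSIG10 at 0.54 on replicate 3. In FL, replicate 3 stood at 1.18 for NDRG1, replicate 2 at -0.15 for COQ2, 0.52 for NMU, 0.52 for GFAP and -0.37 for CECR5L, and replicate 1 at -0.27 for TTR and 0.20 for TRDN.

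The line difference at week 3 differed from that at week 1, by the test of the difference itself, for SGIP1 (1.38), ATP6V1B2 (1.39), VCP (1.11), HNRNPH1 (1.502), ACTR1A (1.30) and 3 clones without a gene name (1.86, 0.75 and 0.97). Each was higher at week 3. HNRNPH1 and ACTR1A passed through dimmer clones, above background on 1 and 0 FL arrays of week 1. The other clones of HNRNPH1 gave 0.48 and 0.18, and the brightest clone of ACTR1A gave 0.28. Leaving out 1 of the 16 arrays of weeks 1 and 3 in turn, HNRNPH1 passed 15 times, SGIP1 in 14, ATP6V1B2 in 12, ACTR1A in 8 and VCP in 5. SGIP1 had no value on LL week 3 replicate 1 and VCP none on FL week 3 replicate 3. Leaving out those arrays could not change their steps.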

How the results depend on the processing

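At week 3, 0 clones passed under every alternative tried. Clones with values that did not overlap numbered 27 of 2531 complete clones (1.07%) with the authors' log2 ratios and 17 of 2227 (0.763%) when above background on every measured array, against 96 of 6700 (1.43%). The count of 8 for week 3 minus week 1 became 6 with the replicate block, 4 with array signal as a covariate or print-tip loess, 14 without background subtraction, 5 with median centring or no filter on dim clones, 1 with the strict filter, and 0 with scaling between arrays (943 at an unadjusted p under 0.05, limma) or the authors' log2 ratios (587). Leaving out 1 array gave 0 (without LL week 1 replicate 1; 915 at an unadjusted p under 0.05) to 24 (without FL week 1 replicate 1), with 1 without LL week 3 replicate 2 and 23 without LL week 3 replicate 4. Leaving out both arrays numbered 1 of week 3, chosen after seeing the data, gave 3. For week 3 minus week 5 the count became 1 with scaling, and 0 to 1 with an array left out (1 without replicate 4 of LL at week 3 or at week 1). The signal difference of 0.11 ranged from -0.63 to 0.73 with 1 array left out. Uncalled genes changed sign as follows. With the authors' log2 ratios PNOC was 0.036, ADCYAP1 0.014, NTRK2 0.0088, GH -0.029 and ISL1 0.011, and in the authors' series table ADCYAP1 was 0.014, NTRK2 0.0088, GH -0.029, ISL1 0.011, INSR -0.23, GPI -0.082 and the brightest clone of HNRNPH1 -0.012. Without background subtraction ADCYAP1 was 0.024, GHR 0.024 and DDX46 -0.060. Median centring gave ADCYAP1 0.00773 and GHR 0.049. Array weights gave INSR -0.14, NSF -0.012, NECAB1 -0.012 and ZEB1 -0.13, scaling TAC1 -0.00695 and ZEB1 -0.037, and print-tip loess FOXJ1 0.022 and RAX2 -0.034. The mean of its clones gave POMC 0.067. Without both arrays numbered 1, TAC1 was -0.0092, NTRK2 0.0012, ZEB1 -0.10 and TRDN -0.037. With 1 array left out, PNOC ranged from -0.28 to 0.010, ADCYAP1 from -0.10 to 0.11, TAC1 from -0.049 to 0.052, POMC from -0.11 to 0.032, NMU from -0.11 to 0.15, GHR from -0.20 to 0.15, INSR from -0.073 to 0.27, NTRK2 from -0.086 to 0.016, FOXJ1 from -0.10 to 0.053, RAX2 from -0.0028 to 0.35, ISL1 from -0.13 to 0.026, NECAB1 from -0.039 to 0.13, RNF208 from -0.0027 to 0.17, ZEB1 from -0.11 to 0.14 and TRDN from -0.0025 to 0.11. The cause of these changes was not tested. At week 1 the count of 19 became 35 with the replicate block, 40 with array weights, 46 without background subtraction, 30 with median centring, 3 with scaling, 2 with the strict filter, 1 with the authors' log2 ratios and 0 with signal as a covariate, and with an array left out it ranged from 2 to 88, with 5, 29, 10 and 10 without FL replicate 2, 3 or 4 or LL replicate 4 of week 1, and it was 97 without both week 3 arrays numbered 1. Array weights gave 2 clones at week 5 and 4 at week 7, keeping spots whatever their letter 1 at week 5, and no filter 1 at week 7. The block, an effect of the replicate number shared by all weeks, left the counts of week 3, week 3 minus week 5 and week 3 minus week 7 at 0. It does not model what FL and LL arrays of the same number share within week 3, and no setting did. Whether signal over background set the precision was not tested.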

Other observations

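The widest line differences at week 3, chosen after their values were seen, rested mostly on single arrays. AMDHD2, an enzyme that degrades acetylated amino sugars, had log2 ratios of 5.20, -0.24, -0.03 and -0.05 on the FL arrays, against -0.33, -0.19, -0.05 and -0.11 on the LL arrays, which gave a difference of 1.39 ± 0.63 (SE, adjusted p = 0.999, limma). SRSF10, a splicing regulator, measured -0.09, 5.30 and 0.25 on FL replicates 1, 3 and 4, against -0.34, 0.02, 0.23 and 0.28 in LL, for a difference of 1.77. NADK2, the mitochondrial NAD kinase, measured 0.03, -6.44, 0.33 and 0.21 in FL, against -0.08, 0.09, 0.05 and 0.32 in LL, for a difference of -1.56. In each of these 3 genes 1 FL array lay far from the other FL arrays, which were close to the LL arrays. ISLR, a secreted leucine-rich repeat protein, measured 0.61, 1.76 and -0.27 on FL replicates 2 to 4, against -1.49, 0.10, -0.04 and 0.13 in LL, and its difference of 1.02 rested on arrays of both lines. These 4 genes and 2 clones without a name were the 6 of 7917 whose difference passed 2-fold.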
